A study of Mus musculus with 2 samples.

Results

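The list of C-to-U sites from cortical neuronal nuclei held 261 genes whose sites were spread over at least 100 kb, out of 6929 genes with any site. A gene was taken when it had 3 or more sites on 1 chromosome and its lowest and highest positions lay 100000 bases or more apart. These wide-span genes carried 1888 of the 17755 sites (10.6%), and they were 3.77% of all genes with a site and 12.2% of the 2139 genes with 3 or more. The genes were chosen by the measured positions and the number of their sites, so every distance given below is a description with nothing tested. The editing level was not used in the choice.

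The material was a single group of 2 libraries, NeuN-stained nuclei sorted from the cortex of mice that carried APOBEC1-YTH. This fusion joins the cytidine deaminase APOBEC1 to the YTH domain that binds N6-methyladenosine (m6A), so that cytidines close to m6A are read as thymidines in cDNA. All mice received tamoxifen, 20 mg/kg every 24 hours for 5 days from an age of 10 weeks, and cortex was collected 7 days after dosing ended. Fixation of the nuclei was with 50% ethanol. The labels name polyA RNA as the molecule and a stranded kit for total RNA. No group without the editor or without tamoxifen was analysed here. The labels give neither the promoter of the transgene nor the number of animals behind each library. The list has 1 editing level per site for both libraries together, and no read depth. For this reason no spread between libraries, counting interval or test of a level can be given, and values of gene groups are set side by side as descriptions.

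The nuclei were labelled as neuronal, and marker genes of several cell types had sites. Of 32 neuronal markers 17 had a site, with 45 sites in all, and Rbfox3, which encodes NeuN, had 0. Of 28 astrocyte markers 23 had a site, with 309 sites in all, and Gfap, Aldoc and Apoe were among the 5 without one. Of 28 oligodendrocyte lineage markers and of 26 microglial and vascular markers 23 each had a site (97 and 118 sites). The share of all annotated genes with a site was not computed, so these counts have no common share to be read against. Single genes add much to a total, as Ptprz1 with 20, Luzp2 with 16 and Slc4a4 with 13 of the astrocyte marker sites. The part that RNA of glial and vascular cells plays in the wide-span genes was not tested. More RNA of a gene and more methylation per RNA cannot be told apart in a list of sites.

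N6-methyladenosine is set on nascent RNA in the nucleus by a methyltransferase complex built around METTL3 and METTL14. On mature mRNA it is known to gather near stop codons and in long internal exons. Genes expressed in brain are often very long, because large introns separate their exons, and many of them encode adhesion proteins, ion channels and synaptic scaffolds. In nuclear RNA, introns not yet spliced can carry sites too. The RefSeq tables used here give gene spans, starts and the bases around starts, but no exons, so the split of sites between exons and introns was not determined here.

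The 10 bases on each side of 16 sites could be read in full from the RefSeq start windows (build GRCm38.p6, 250 bases before to 50 after a start) of the gene that carries the site. All lines below are read 5′ to 3′ on the strand of the site, and the capital marks the listed cytidine. They are shown because 15 of the 16 are the first site of their gene and so set one end of its distance. Fat1, Gria2, Negr1, Myt1l, Med13l, Tcf7l2, Usp34, Ube3c, Flt1 and Ankrd44 have it within 37 bases after a listed start, Usp25 156 bases after one, and Mrtfb, Nova1, Gphn and Slc4a4 before the nearest listed start. The exception is the Ank2 site, which lies at an internal start.
Fat1 (chr8:44950231-44950251, plus strand, level 2.3%): cttgcttctgCttctgctcct
Gria2 (chr3:80802815-80802835, minus strand, level 1.55%): gagtcgcgcaCgcgcgcccgg
Negr1 (chr3:156561821-156561841, plus strand, level 3.85%): gcgctgcctgCgccgcctccc
Myt1l (chr12:29534627-29534647, plus strand, level 9.52%): cccaatcttgCctgactactg
Med13l (chr5:118560734-118560754, plus strand, level 2.33%): gcccggcccgCtccgacatgc
Tcf7l2 (chr19:55741835-55741855, plus strand, level 6.67%): ccagactactCcgttcctccg
Usp34 (chr11:23306899-23306919, plus strand, level 4.26%): ccgtcccctcCcccccgccgg
Ube3c (chr5:29569251-29569271, plus strand, level 4.08%): gtacctacggCagcgcggtgc
Flt1 (chr5:147725999-147726019, minus strand, level 3.23%): tgcacttcagCgaggtccttg
Ankrd44 (chr1:54926342-54926362, minus strand, level 7.32%): ggccgggctgCgactcccgcg
Mrtfb (chr16:13256513-13256533, plus strand, level 47.4%): gctgcggcagCggtggcggcg
Nova1 (chr12:46818883-46818903, minus strand, level 14.1%): cctcagactgCtattgatccg
Gphn (chr12:78226469-78226489, plus strand, level 3.8%): cccgccgcctCcgcgctctgt
Slc4a4 (chr5:88887063-88887083, plus strand, level 1.16%): gcgcagccacCcacccggcgc
Usp25 (chr16:77013830-77013850, plus strand, level 8.7%): cgcggcccggCttgatcgtgc
Ank2 (chr3:126998440-126998460, minus strand, level 7.14%): gtgtcctgggCtggatgcagc

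Some sites far inside long genes were also covered, because they lie in the start window of another gene. Those below are examples picked without a rule, and other such sites are not shown. Their levels do not stand for all such sites, and their bases too come from start windows.
Rora (chr9:69364415-69364435, plus strand, level 2.38%): tccagccctcCccagaccagt
Slc4a4 (chr5:89225853-89225873, plus strand, level 1.03%): catctacctgCgccacgtccc
Ctnnd2 (chr15:30966798-30966818, plus strand, level 1.63%): ggaacaacagCaacaactcgg
Trak1 (chr9:121454354-121454374, plus strand, level 1.69%): gctatccctaCgccgggagaa
Hipk2 (chr6:38737507-38737527, minus strand, level 2.68%): tatatagtgtCaaatcttgtt
Of all 17755 sites, 255 lay in a start window, 33 of them in wide-span genes, and in each of the 255 the base on the site's strand was a cytidine. The base before it was G in 17, T in 6, A in 5 and C in 5 of the 33 sites. In the other 222 sites G also came first, with 113. The letters GAC or AAC, the core of the m6A consensus, stood within the 21 bases centred on the site (site strand only) in 11 of 29 wide-span sites with full windows (37.9%) and in 74 of 203 other sites (36.5%). The first 21 bases after the start held them in 38.8% of 32851 start windows. These windows cover starts, which are rich in G and C, and say nothing about sites elsewhere in the genes.

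The wide-span genes were 259 protein-coding genes and 2 long noncoding RNA genes, Snhg14 and Mir99ahg. All 261 names matched a RefSeq symbol, and in all 209 genes with a listed strand it was that of the sites. The genes lay on 20 chromosomes, from 28 genes on chromosome 5 to 1 on chromosome X. Their sites numbered from 3 to 43 per gene with a median of 6: 117 genes had 5 or fewer sites, 53 had 10 or more and 7 had 20 or more. The distance ranged from 100035 to 1475678 bases with a median of 158 kb (quartiles 122 and 254 kb). It was at least 200 kb in 86 genes, at least 500 kb in 16 and at least 1000 kb in 5.

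The limit of 100 kb cut through a continuous range. Just inside it lay Herc2 (12 sites, 100035 bases), Erbin (16 sites, 100194 bases), Ap2b1 (3 sites, 100287 bases), Pcnx (3 sites, 101179 bases) and Plcl2 (4 sites, 101261 bases). Just outside it lay Mbnl1 (6 sites, 99866 bases), 4930402H24Rik (5 sites, 99638 bases), Ppp1r9a (9 sites, 99294 bases) and Bcar3 (3 sites, 98982 bases). Their median levels overlapped, from 2.03% in Erbin to 4.65% in Pcnx inside and from 1.80% in 4930402H24Rik to 5.02% in Mbnl1 outside.

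**Figure D1:**
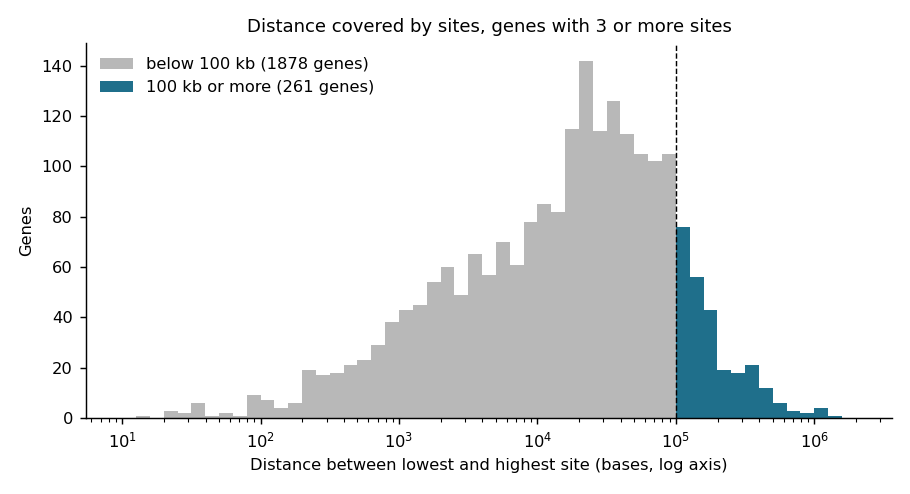
Number of genes (y axis) by the distance in bases between their lowest and highest site (log x axis), for all genes with 3 or more sites. The 261 wide-span genes to the right of the dashed line at 100 kb form the falling flank of a distribution that also holds 1878 genes below the limit, with no break at the line.

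Long gene spans came with wide distances, as the rule makes likely. Of the 2139 genes with 3 or more sites, 12.2% were wide-span genes, and of the 618 of them with a RefSeq span of 100 kb or more, 42.1%. By length the share went from 71 of 262 genes (27.1%) at 100 to 150 kb over 77 of 155 (49.7%) at 200 to 400 kb to 19 of 24 (79.2%) above 800 kb. The median span was 219 kb, and the sites covered a median of 91.2% of it (quartiles 63.8% and 98.7%). The least covered gene was Ptprd, a receptor phosphatase of synapses, whose 8 sites covered 8.64% of a span of 2271 kb, all of them beyond 2071 kb. Ptprd is named after its value was seen.

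In most of these genes the distance rested on 1 end site. When the lowest or the highest site was left out, whichever shortened the distance more, 103 of 261 genes kept 100 kb or more and 158 (60.5%) fell below it. Without the first site, at the 5′ side, 135 genes fell below the limit, and without the last site 48. Of the 49 genes with 3 sites, 46 fell below it. Of the 53 genes with 10 or more sites, 34 stayed above it. The first site had no other site of its gene within 10 kb in 188 genes, the last site in 92 genes.

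The largest gap between neighbouring sites took a median of 69.3% of the distance (quartiles 52.5% and 93.7%). It took over 90% in 76 genes, so that the sites stood at opposite ends of the stretch, and under 30% in 10 genes. Counting sites within 10 kb of each other as 1 place, 68 genes had 2 places, 83 had 3 and 51 had 5 or more. Only Syne1 reached 10 places. Genes with 3 or 4 sites had a median largest gap of 94.0%, those with 5 to 9 sites 62.9%, those with 10 to 19 sites 49.3% and the 7 genes with 20 or more sites 44.0%.

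**Figure D2:**
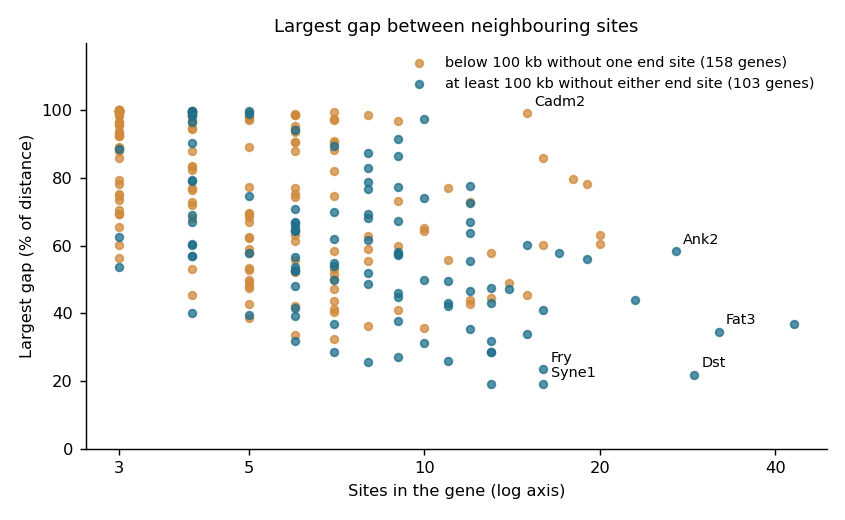
Largest gap between neighbouring sites as a percentage of the gene's distance (y axis) against the number of sites (log x axis), 1 point per wide-span gene. Genes that fall below 100 kb without 1 end site (158, orange) crowd at few sites and large gaps, while Syne1, Fry, Dst and Fat3 lie among the low gaps.

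The last site often stood close to the 3′ end of the gene, and the first site less often close to its outer 5′ end. Starts were listed for 209 of the 261 genes and can lie far inside a gene. For the rest only the outer 5′ end was used. In 142 of 261 genes (54.4%) the first site lay within 1 kb of a start, and in 109 (41.8%) within 1 kb of the outermost 5′ end. In 185 genes (70.9%) the last site lay within 5 kb of the 3′ end. A first site near a start and a last site near the 3′ end were found together in 102 genes, and neither in 36. Of the 1879 wide-span sites inside their gene span, 510 (27.1%) lay in the last 5 kb, 189 (10.1%) within 1 kb of a start and 1180 (62.8%) elsewhere, called interior. Interior sites can include sites at internal starts that were not listed. The 358 other long genes with 3 or more sites, whose sites stayed within a shorter stretch, had 41.6%, 2.05% and 56.4% of 1997 sites in these parts. In how many of the 358 genes starts were listed was not determined. A site near each end is part of what makes a distance wide, so this contrast follows in part from the choice of the genes.

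With the span cut into 10 equal bins from 5′ to 3′, the last bin held 41.8% of the wide-span sites and bin 1 held 12.2%. Bin 2 held the fewest, 32 sites or 1.70%. Bins 3 to 9 held between 4.52% and 9.10% each. In the other long genes bin 2 was also the emptiest, with 0.701%, bin 1 held 54 of 1997 sites and the last bin 59.3%. Sites with another site of their gene within 100 bases made up 26.2% of the wide-span sites and 27.1% of those of the other long genes. Sites with none within 10 kb made up 28.3% and 20.1%.

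**Figure D3:**
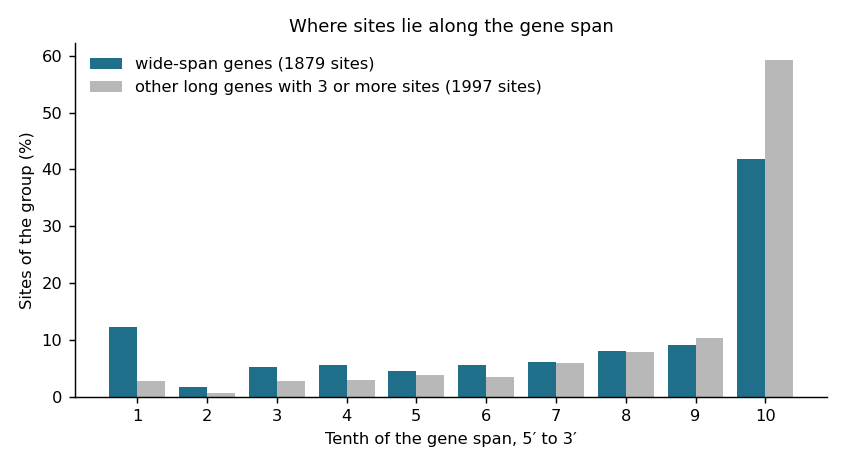
Share of a group's sites (y axis, %) in each of 10 equal bins of the gene span from the 5′ to the 3′ end (x axis), for wide-span genes (blue, 1879 sites) and other genes of 100 kb or more with 3 or more sites (grey, 1997 sites). Both groups peak in the last bin and dip in bin 2, and the wide-span genes have a further peak of 12.2% in bin 1.

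Some wide-span genes had sites scattered along the gene, among them genes of large structural and scaffold proteins. Syne1 encodes nesprin-1, a giant spectrin-repeat protein of the nuclear envelope (chromosome 10, 5020192 to 5550692). Its 16 sites lay in 10 places from 147 kb to 530 kb after the 5′ end, and its largest gap was 19.1% of the distance. Of these sites 15 had levels between 1.05% and 2.27%, and the last, near the 3′ end, had 8.70%. Dst encodes dystonin, a linker of cytoskeletal filaments. Its 29 sites began 227 kb into a span of 401 kb, 19 of them followed each other between 244 and 321 kb, and the largest gap was 21.9%. Fry, a furry homologue, had 16 sites in 7 places from 227 kb to the 3′ end, with levels from 1.12% to 7.41%. Its paralogue Fryl had 23 sites in 7 places, from 1.03% to 8.70%, with 7 of them in the last 5 kb and a largest gap of 44.0%. Akap9, a scaffold of protein kinase A at the Golgi and centrosome, had 13 sites in 7 places and a narrow range of levels, 1.10% to 3.64%.

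A further 6 genes had largest gaps under 30% of the distance and are named after their values were seen. Mycbp2, a giant ubiquitin ligase of axons, had 11 sites in 9 places, with 9 sites from 1.10% to 4.55% and a closing pair at 14.3% and 9.52%. Lama2, a laminin chain, had 7 sites that all stood alone between 150 and 610 kb, and the highest of their levels, 9.52%, was that of site 4. Nav2, a neuron navigator, had 6 lone sites from 450 to 613 kb at 1.46% to 2.50%, then 3 sites near the end that reached 10%. Arap2 and 4932438A13Rik had 13 sites in 8 places each, and Ptprd 8 sites in 7. In Ptprd the first 7 sites were at 1.17% to 2.53% and the last at 9.09%. The highest level of Syne1, Dst, Fry, Mycbp2, Nav2, Arap2 and Ptprd was in each case in the last 5 kb, and those of Akap9, Lama2 and 4932438A13Rik, which had 0 sites there, were not.

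**Figure D4:**
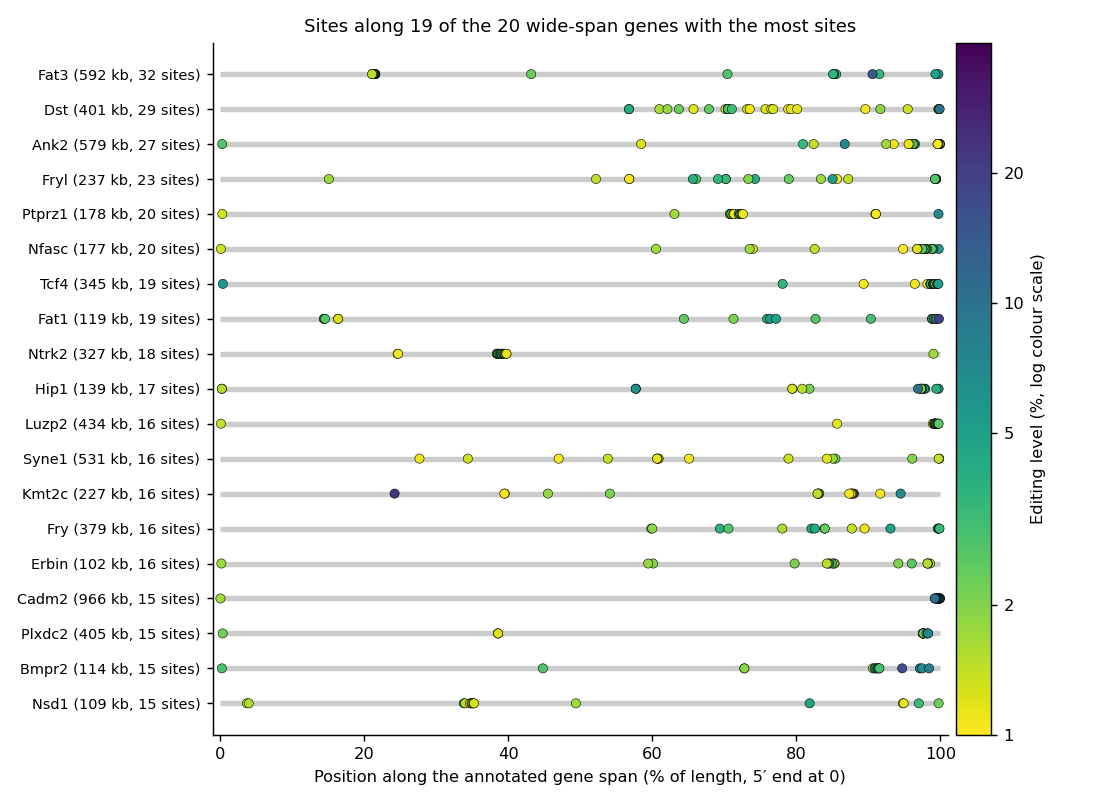
Sites along the gene span (x axis, % of length from the 5′ end) of 19 of the 20 wide-span genes with the most sites, 1 row per gene with its span and number of sites, coloured by editing level (log scale). Dst, Fry and Syne1 have sites scattered over the 3′ part of the gene and none at the start, while Cadm2, Luzp2 and Tcf4 have 1 site near the start and most of the others crowded at the end.

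In other genes 1 gap took most of the distance. Cadm2, a synaptic adhesion molecule of the immunoglobulin family (chromosome 16, 66655416 to 67620917), had 1 site at 1.67% near its start and 14 sites in its last 8 kb at 5.41% to 18.2%, with a gap of 99.3% of the 965 kb between them. Of the Cadm2 sites 10 also lay in the span of 1700010K23Rik. Luzp2, a leucine zipper gene of glia, had 1 site at 1.43% near the start, 1 at 1.15% at 371 kb, and 14 sites within 3494 bases near the end at 1.22% to 13.6%. Rora, a nuclear receptor, had 1.45% at its start, a gap of 96.8% of the 734 kb, and 8 sites at 2.38% to 12.5%. Trpm3, a cation channel, had 1 site at 5.13% at 310 kb and 6 from 841 kb on at 1.04% to 5.71%. Of its 7 sites, 6 also lay in the spans of C330002G04Rik or Gm27151. In Mdga2, which encodes a regulator of neuroligins, a site of 5.56% at the start was followed by 1 of 3.77% at 653 kb and 7 sites of 9.09% to 20.0% near 751 to 755 kb. St18, a zinc finger factor, had 8.70% and 6.90% at its start and 6.67% at 316 kb. Lrrc4c, the netrin-G ligand gene, had 3.08% at 1150 kb and 2 sites of 12.5% next to its 3′ end.

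The longest distance was that of Magi2, a postsynaptic scaffold gene (chromosome 5, 19219387 to 20704792), with 4 sites over 1476 kb at 4.76%, 1.53%, 2.99% and 1.25% from 5′ to 3′. Csmd3, a complement-domain protein of synapses, had 3 sites over 1195 kb, at 2.41%, 11.1% and 20.0%. Ptprt, a receptor phosphatase of adhesion, had 6 sites over 1134 kb, all between 1.47% and 4.76%. In Magi2 the highest level stood first, in Csmd3 and Ptprt last.

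Lrp1b, an endocytic receptor of the LDL receptor family, covered 1045 kb with 7 sites of 1.80% to 4.55%, and 0 of them lay in the last 5 kb or near a start. Pcdh9, a protocadherin, had 8 sites within 4512 bases near its start at 1.39% to 3.28%, 1 at 10.0% at 566 kb and 3 of 8.70% to 18.2% near its end, so the levels near the start did not overlap those further on. Negr1, an adhesion protein anchored in the cell membrane, had 3.85% at the start, 4.76% and 2.63% in the interior, and 16.7% and 20.0% at the end. Auts2 had 4 sites over 592 kb at 2.56%, 18.8%, 4.69% and 5.56%. Lpp, a focal adhesion protein, had 2.06%, 2.90% and 12.5% over 578 kb. Ank2, the ankyrin that ties membrane proteins to spectrin, had 27 sites over 577 kb, of which 14 stood within 1995 bases near the end at 1.03% to 5.63% and the highest, 7.14%, at 502 kb, is the one whose bases are printed above. Pard3, a polarity protein, had 6.67%, 5%, 7.14% and 7.69% over 547 kb, a narrow range.

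Dense groups of sites also stood far from both ends of the RefSeq span. Fat3, an atypical cadherin (chromosome 9, 15910189 to 16502681), had 22 of its 32 sites within 2644 bases at 125 to 128 kb, at 1% to 3.57% with a median of 1.66%. The other 10 Fat3 sites, from 256 to 591 kb, had levels of 2.30% to 14.3%. Ntrk2, which encodes TrkB, the receptor of BDNF, had 15 of 18 sites within 4337 bases at 126 to 130 kb, at 1.16% to 12.9%, far before its last site at 324 kb. Ptprz1, a receptor phosphatase of astrocytes and precursor cells and a member of the astrocyte marker list, had 13 of 20 sites within 3201 bases at 126 to 129 kb, at 1.06% to 8.33%. Ash1l, a histone methyltransferase, had 8 of 14 sites within 3015 bases at 32 to 35 kb. Pclo, which encodes the active zone protein piccolo, had 14 sites of 1.27% to 6.90%. None lay in the last 5 kb, and the last site stood at 277 kb of a span of 349 kb.

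Editing levels of the wide-span sites were low, with a median of 2.78% (quartiles 1.64% and 5.13%). The median was 3.03% in the 9695 sites of the other genes with 3 or more sites, 3.12% in the 2023 of those in long genes, and 3.64% in the whole list. Levels of 10% or more were reached by 8.47% of the wide-span sites and by 9.49% of those of the other long genes. Per gene, median levels ran from 1.20% to 24.2% with a median of 2.99%, under 2% in 60 genes and 10% or more in 11. Genes with few sites had the higher values: the median over genes was 4.65% for 3 or 4 sites, 2.82% for 5 to 9, 2.80% for 10 to 19 and 1.76% for 20 or more. The same high values recurred in different genes, among them 20%, 16.67%, 14.29% and 12.5%. Fractions of few reads can take only such set values, so rankings of the higher levels are to be read with caution. How far read depth sets these levels was not tested, since the table gives none.

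Within the genes the level differed between places. Sites in the last 5 kb had a median of 4.55% (quartiles 2.54% and 8%), interior sites 2.38% (1.54% and 3.92%) and sites within 1 kb of a start 2.30% (1.47% and 4.44%). The quartile ranges of all 3 overlapped. The other long genes with 3 or more sites also had the higher median in the last 5 kb, 4.265% against 2.48% in the interior. In the whole list these medians were 4.35% and 2.94%. Near starts the median was 3.92% in the other long genes, over 41 sites, and 3.12% in the whole list. Of the 183 genes with sites both in the last 5 kb and elsewhere, 142 (77.6%) had the higher mean in the last 5 kb and 41 the lower, with a median difference of 2.11 points. Of the 128 genes with sites both near a start and in the interior, 46 had the higher mean near the start and 82 the lower, with a median difference of -0.90 points. Coverage along the genes is not in the table, so its part in these differences was not tested.

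**Figure D5:**
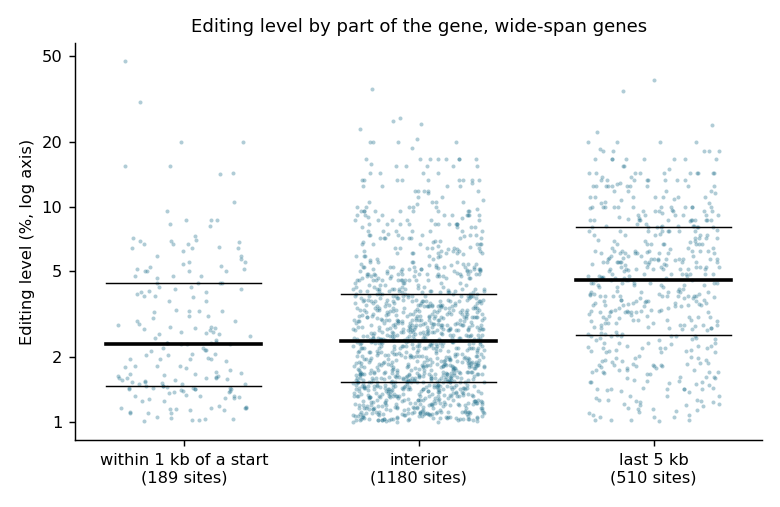
Editing level (log y axis, %) of every wide-span site inside its gene, by part of the gene (x axis). Thick lines are medians and thin lines quartiles over sites. The last 5 kb has the highest median, 4.55%, against 2.38% in the interior and 2.30% near starts, and the clouds overlap.

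The highest median levels were found in genes with few sites. Etv6, a transcriptional repressor of the ETS family, led with 8.33% at its start and a pair of 35% and 24.2% at 198 kb, where the span of another locus overlaps. Tspan18, a tetraspanin, followed with 15.4% at its start and 16.7% at 2 sites near its end. Mdga2 and Hlcs, the holocarboxylase synthetase gene, had medians of 13.3%, over 9 and 3 sites. Celf2, a splicing regulator, had 12.9% with 1 site of 1.10% and 2 close to its end of 13.3% and 12.9%. Lrrc4c (12.5%), the ephrin receptor gene Epha4 (11.5%), Csmd3 (11.1%), Prkdc (10.8%), which encodes the catalytic subunit of a DNA repair kinase, and Dip2c (10.2%) came next, each with 3 or 4 sites. Cadm2 at 10.0% was the only gene with a median of 10% or more and over 9 sites. The lowest medians were those of Zmiz1 (1.20%), Slc6a11, a GABA transporter gene not on the astrocyte marker list (1.21%), and Slc4a4, a bicarbonate transporter gene on that list (1.27%). The cytolinker gene Macf1 (1.27%) and Msi2 (1.28%), which encodes an RNA-binding protein, came next.

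Levels of 20% or more were no more frequent here than in the whole list, with 1.27% of the wide-span sites against 2.02%. The share was 1.33% in the other long genes with 3 or more sites. In the wide-span genes these were 24 of the 1888 sites, in 21 genes. Of the 24, 8 lay in the last 5 kb, 4 near a start, 10 in the interior and 2 outside the gene span. The highest was 92.9% in Acvr1, a type I receptor of the BMP pathway, at position 58567080 of chromosome 2. It lay 252 bases before the RefSeq start, and the other Acvr1 sites had 9.52% and 7.41%. Without that site Acvr1 would have 2 sites and would not be a wide-span gene. Mrtfb, a coactivator of serum response factor, had 47.4% at the start site printed above, against 1.94% to 11.5% at its other 5 sites, which all lay in the span of Gm15738. Tmem267 had 38.7% at 119 kb, beside 5.56%, 8.11% and 6.06%. Hip1, a clathrin adaptor gene, had 30.4% close to its start and 1.33% to 16.7% at its other 16 sites. Kmt2c, a histone H3 lysine 4 methyltransferase, had 23.0% at 55.0 kb and 25.6% at 199.8 kb and 1.03% to 6.67% at the other 14. Fat4 had 25.0%, Tanc1, a postsynaptic scaffold gene, 23.8%, and Snhg14 20.6%. Bcl2, Ccdc141, Csmd3, Erc2, Fat1, Mdga2, Negr1, Nol4l, Ptpn4, Tmem135 and Tshz2 each had 1 site of 20.0%. Of the 21 genes, 3 had more than 1 such site, Etv6 and Kmt2c among them. No library without the editor was analysed here, so the level of these positions without it was not tested.

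The functional lists held 130 of the 261 genes. Because the lists differ in gene length and the rule favours long genes, their counts are to be read against the 12.2% of genes with 3 or more sites, or the 42.1% of long ones, that were wide-span genes. Of 41 adhesion and synapse-organising genes with 3 or more sites (33 of them long), 20 were wide-span genes, with 239 sites. Fat3 had 32 of them, and Ptprz1 and Nfasc, the neurofascin of axon initial segments and nodes, had 20 each with medians of 1.68% and 1.76%. Their medians ranged from 1.55% in Ptprd to 12.5% in Lrrc4c. In this list 14 of 20 genes kept 100 kb whichever end site was left out, against 103 of all 261 wide-span genes (39.5%). Over all wide-span genes, 20 of the 89 with 3 or 4 sites kept it and 34 of the 53 with 10 or more. Such counts go with the number of sites and are not read as a trait of a list.

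Among receptors of guidance cues, 4 of 12 axon guidance genes with 3 or more sites (10 long) were wide-span genes. Neo1, a netrin and RGM receptor, had 9 sites with a median of 2.94%, Epha4 4, and Epha5 and the ligand gene Sema3c 3 each (medians 8% and 3.85%). None of the 4 kept 100 kb whichever end site was left out, against 39.5% of all wide-span genes. In Sema3c a gap of 99.95% of the distance separated 1 site from a pair.

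At the synapse, 9 of 21 scaffold and release genes with 3 or more sites (15 long) were wide-span genes. Pclo had 14 sites and Gphn, the gephyrin scaffold of inhibitory synapses, 9 over 458 kb with a median of 4.17%. Magi3 had 6 sites with a median of 4.72%, and Erc2, an active zone gene, had 4.08%, 20.0% and 9.09%. Of 14 channel and receptor genes with 3 or more sites (10 long), 7 were wide-span genes, with medians from 1.52% to 9.52%. Grm3, a metabotropic glutamate receptor gene, had 11 sites of 1.32% to 5.36%. Itpr2, the type 2 inositol trisphosphate receptor gene, had 7 sites of 1.18% to 4.08% in its first 128 kb and 2 of 7.14% and 15.4% near its end. Gria2, an AMPA receptor subunit gene, had 8 sites, 2 of them (1.55% and 6.86%) near starts.

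Cytoskeletal and motor genes were 11 wide-span genes of 43 with 3 or more sites (33 long), with 134 sites. Their medians were low, from 1.27% in Macf1 to 2.67% in Dnm3. Of the 11, 9 kept 100 kb whichever end site was left out, against 39.5% of all wide-span genes. Dst, Ank2 and Syne1 led, followed by Syne2, the nesprin-2 gene, with 11 sites of 1.32% to 14.3%. Among regulators of small GTPases 15 of 35 (29 long) were wide-span genes. The exchange factor gene Kalrn had 8 sites over 479 kb, 7 from 1.12% to 6.56% and 1 at 15.8%. Rapgef2 and Dock9 had 7 sites each, with medians of 5.13% and 1.38%, and Nf1, the neurofibromin gene, 7 with 3.39%.

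In kinase, lipid and cyclic nucleotide signalling 14 of 29 genes (24 long) were wide-span genes. Ntrk2 led with 18 sites, then Akap9 with 13, Akap6 with 12, all 12 of them interior, and Wnk1, a kinase gene of ion transport, with 10. Among transcription factors 17 of 42 (29 long) were wide-span genes, a count that includes Peak1, a pseudokinase gene misplaced on that list. Tcf4, a basic helix-loop-helix factor, had 19 sites, 1 of 5.68% at 1.27 kb from its 5′ end and 16 within 11279 bases of each other towards the end at 1.05% to 8.62%. Zfhx3 had 12 sites, Arnt2 10 and Rora 9. Of the 10 Arnt2 sites, 6 also lay in other gene spans. Of these 17 genes 4 kept 100 kb whichever end site was left out, against 39.5% of all wide-span genes.

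Chromatin regulators had 12 wide-span genes of 56 with 3 or more sites (32 long), with 121 sites and medians from 1.39% to 4.76%. Kmt2c had 16, Nsd1 15, Ash1l 14 and the acetyltransferase gene Crebbp 13. Nsd1, a histone H3 lysine 36 methyltransferase gene, had sites in 5 places at 1.04% to 5.41%. RNA-binding and splicing genes had 6 of 27 (14 long), among them R3hdm1 with 8 sites, Msi2 with 6, Tnrc6c with 5 and Cpeb3 with 4. Of the 6, 0 kept 100 kb whichever end site was left out, against 39.5% of all wide-span genes. Ubiquitin pathway genes had 10 of 24 (16 long). The ligase genes Birc6 (13 sites), Herc1, Herc2 and Trim2 (12 each) led, with medians of 1.90%, 2.24%, 3.19% and 3.45%.

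Of 19 astrocyte markers with 3 or more sites (9 long), 4 were wide-span genes, namely Ptprz1, Luzp2, Slc4a4 and Npas3. Of 12 oligodendrocyte lineage markers with 3 or more sites (4 long), 1 was, St18. Of 14 microglial and vascular markers (4 long), 1 was, the vascular receptor gene Flt1 (10 sites, median 3.20%). Of 7 neuronal markers (6 long), 1 was, Tle4 of deep-layer neurons (4 sites, 1.80% to 5.26%). With so few genes in each list, nothing is read from these counts against the shares of 12.2% and 42.1%.

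Both noncoding wide-span genes are known as hosts of small RNAs. Snhg14 is the long transcript of the Prader-Willi region that carries snoRNA clusters (chromosome 7, 59272737 to 60450177). Its 8 sites lay 476 kb to 1003 kb after its 5′ end, over 174 kb from both ends, at 5%, 8.70%, 20.6%, 7.14%, 5.88%, 3.77%, 1.42% and 1.12% in 5′ to 3′ order. The levels thus peaked at the third site and were lowest at the last.

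Mir99ahg (chromosome 16, span 77329328 to 77558428) had 1.14% near its start, 2.78% at 170 kb and 4 sites at 3.03%, 4.17%, 5.41% and 15.4% within positions 77595068 to 77595152. These 4 lay over 36 kb beyond the RefSeq end of the gene and 3784 to 3868 bases before the hairpin of Mir99a, on the same strand, with that of Mirlet7c-1 next. Whether these sites and hairpins belong to the Mir99ahg transcript was not determined. Without the 4 sites Mir99ahg would not be a wide-span gene. The mature miRNAs of the hairpins are printed with bases 2 to 8, the seed, in capitals (RefSeq, GRCm38.p6).
mmu-miR-99a-5p: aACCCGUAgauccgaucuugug
mmu-let-7c-5p: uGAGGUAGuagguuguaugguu
The seeds differ. Within 5000 bases on the same strand, hairpins also lay near sites of Bcl2, Zmiz1, Tmem132b and Wdfy2, of which the last 2 are named after this search. The first site of Wdfy2 (2.56%) stood 14 bases from the hairpin of Mir8098.

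The gene assignment was uncertain for a small share of sites. Of the 1888 sites, 92 (4.87%) in 42 genes also lay in the span of another gene, 13 of them in a protein-coding one. The other gene was on the opposite strand for 67 sites and on the same strand for 0, and for the rest its strand was not listed. Ppm1e, named after its value was seen, was the only gene with all of its sites in other spans. Besides Acvr1 and Mir99ahg, 4 genes had a site outside their RefSeq span: Cdc73 (9.09%, 2717 bases past the 3′ end), Tmem135 (20.0%, 177 bases past it), Xylt1 (3.03%, 3056 bases past it) and Grk3 (6.45%, 100 bases before the start). In Cdc73, Mir99ahg and Xylt1 the distance was longer than the span itself.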

How the data were processed

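C-to-U sites were found by the authors with the Bullseye pipeline, per the series' design text, and the submitters' processing notes name STAR 2.7.5 and build mm10. The deposited table gives 1 editing fraction per site for both libraries; fractions were printed as percent. The sources used here give no pipeline settings, control, coverage minimum or rule for combining the libraries, so the depth is unknown. The lowest listed value was 1.00%, so weaker sites are not seen.

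Sites were grouped by gene name with Python 3.11.15 and pandas 2.3.3. Distance is the highest minus the lowest position. RefSeq tables of GRCm38.p6, the assembly of mm10, gave spans, starts and sequences. A site counted as in the last 5 kb, within 1 kb of a listed start (or the outer 5′ end), or interior, in that order. Only the outermost 3′ end of the RefSeq span was used, so transcript ends further inside a gene were not taken into account. The number of sites, distance, largest gap, median level and distance without an end site per gene were tested on simulated data, as was the rule. That test did not cover the matching to RefSeq, the parts of the gene, the overlaps or the sequences. Named genes were the 20 with the most sites, the 15 widest, the 10 highest and 5 lowest medians, 5 on each side of the limit, 4 per list, and those with a site of 20% or more or outside the span; others were named for a printed sequence, as the end of a range, or where the text says so. Some genes that this rule names are not reported here. The members and lists were chosen with earlier results of these data known. No test was run. Alternatives for limits and filters are given at the end.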

Additional observations from a re-analysis of the deposited data

How the results depend on the processing

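Of 32 recomputed values, 12 stayed within 1.5 times (counts) or within the 95% binomial interval of the main share or median over sites or genes, and 20 moved further. Sites and genes are not replicates, so these intervals served only as a yardstick for change and measure no error between libraries. The number of genes followed the limits: 578 at 50 kb, 86 at 200 kb, 172 with at least 5 sites, 167 with sites of 2% or more and 36 with 5% or more. All 36 and all 167 were among the 261, as they must be, because leaving out sites cannot widen a distance. The level was 3.92% as the median of gene means, 4.26% as the mean over sites and 4.17% with sites of 2% or more. The share of sites near the 3′ end was 14.4% for 2 kb, 32.9% for 10 kb and 33.8% with sites of 2% or more. With that minimum 46 of 167 genes stayed over 100 kb without either end site, and the median largest gap was 77.0%, against 58.7% for genes with at least 5 sites. Overlap with other genes was 0.689% for protein-coding genes and 0% for those on the same strand. Chosen after seeing the data, the share of genes whose first site lay near a start was 47.5% for 500 bases and 41.8% for the outer 5′ end alone, and genes with 5 or more places numbered 77 at 5 kb and 19 at 20 kb. The share of genes with the higher mean in the last 5 kb stayed between 74.4% and 81.4% under all 4 alternatives run. No paired analysis was possible because the 2 libraries belong to 1 group and the table gives 1 value for both; for the same reason leaving out a library could not be run.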
